A study of Mus musculus with 6 samples.

Results

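Klotho, its relative beta-Klotho, the FGF receptors and the proteases that release Klotho from the cell surface were followed in translating ribosome affinity purification (TRAP) libraries of mouse choroid plexus (ChP). The 8 genes, Kl, Klb, Fgfr1, Fgfr2, Fgfr3, Fgfr4, Adam10 and Adam17, were taken by symbol from a table of 24354 gene names, and all 8 were in it. TRAP recovers mRNA on ribosomes that carry EGFP fused to the ribosomal protein L10a, and in these FoxJ1:cre x bacTRAP mice both ages carry the tag, which Cre switches on under the promoter of Foxj1, a gene of ciliated cells. The 3 adult samples (labelled 60 days) and the 3 embryonic samples (E16.5) differ in age, and the labels name no treatment. By the methods each sample pools lateral ventricle ChP of 3 mice or of 3 litters, whereas the series text gives 3 mice per age, so p-values measure the spread between these samples. Values are FPKM, which divides the fragments of a gene by its length and by the size of the library, a scale on which genes of different length can be set side by side.

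Klotho is a membrane protein of ChP epithelium, where it lies on the apical surface, and of kidney tubule and parathyroid cells. On the membrane it joins an FGF receptor to form the high-affinity receptor for the hormone FGF23, and beta-Klotho does the same for FGF21 and for mouse FGF15. The ectodomain of Klotho is also cut off by the metalloproteases ADAM10 and ADAM17 and circulates in blood and cerebrospinal fluid. FGF receptors are tyrosine kinases that bind most other FGFs together with heparan sulfate and signal through FRS2, RAS and the MAP kinases.

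Kl and Klb, which lie apart on chromosome 5, are relatives whose adult levels were far apart, so the bases before their starts are shown. RefSeq promoter windows (GRCm38.p6, the build mm10) were found for 7 of the 8 genes, all but Fgfr1. Each line gives the 250 bases upstream of the start, on the plus strand, at chr5:150952357-150952606 for Kl and chr5:65348161-65348410 for Klb. Capitals mark the GC box, GGGCGG or its reverse complement.
Kl: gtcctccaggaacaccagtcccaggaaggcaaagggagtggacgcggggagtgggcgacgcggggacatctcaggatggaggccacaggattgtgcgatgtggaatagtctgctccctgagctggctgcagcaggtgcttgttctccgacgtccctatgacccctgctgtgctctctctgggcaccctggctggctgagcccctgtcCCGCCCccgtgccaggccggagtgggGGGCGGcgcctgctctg
Klb: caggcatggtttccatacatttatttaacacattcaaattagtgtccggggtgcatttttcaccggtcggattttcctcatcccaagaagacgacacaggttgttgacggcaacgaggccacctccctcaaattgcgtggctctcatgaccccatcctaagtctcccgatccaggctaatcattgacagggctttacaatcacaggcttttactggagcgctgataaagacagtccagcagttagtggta
The Kl window had 66.8% G and C and held the GC box at 2 places, whereas the Klb window had 48.0% and held none. The median promoter had 52.4% G and C, and 32.7% of all promoter windows of this length held a GC box on either strand. TATAAA, searched on both strands, was in neither window and in 12.4% of all windows. These letters are a description of the windows and no binding was measured.

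The libraries differed in depth and in their makeup. Judged by the worth of 1 read among low FPKM, the library of adult replicate 3 was the shallowest, adult replicates 1 and 2 exceeded it 1.26 and 2.86 times in depth, and the embryonic libraries 4.02 to 5.08 times. Among the 11601 genes tested (mean FPKM above 1 over the 6 samples), 10.3% to 36.4% had no FPKM in an adult library and 3.68% to 4.02% in an embryonic one. The small RNA gene Mir6236 took 51.0%, 32.7% and 51.7% of the summed FPKM in adult replicates 1, 2 and 3. At E16.5 it took 13.3%, 13.6% and 15.0%. Each of the 12 epithelial markers was above 0 in at least 1 adult library, and at E16.5 each but Ttr, the main thyroid hormone carrier of ChP, which was listed at 0 in every library. An FPKM of 0 can therefore be a failed estimate. The 8 mesenchymal markers summed to 13.3 to 22.04 FPKM in adult and 58.6 to 69.4 FPKM at E16.5, and the 8 markers of motile cilia to 144 to 335 and 888 to 1194 FPKM. Endothelial markers summed to 0.489 to 18.99 FPKM in adult and 12.7 to 40.8 FPKM at E16.5, with Plvap, Emcn and Tek at 0 in adult and Pecam1 and Cldn5 at 0 in embryonic ChP. Macrophage markers summed to at most 7.55 FPKM in any library, and Aif1, C1qc and Tyrobp were at 0 throughout. Red cell markers summed to at most 6.49 FPKM in adult ChP and to 324, 54.1 and 108 FPKM in E16.5 replicates 1, 2 and 3. Neuronal markers summed to at most 3.24 FPKM in adult and to 88.3, 4.59 and 4.12 FPKM in the same E16.5 replicates. Glial markers summed to 4.59, 11.8 and 73.0 FPKM in adult replicates 1, 2 and 3 and to at most 13.5 FPKM at E16.5. Cell cycle genes summed to 0.607 to 16.5 FPKM in adult and 20.3 to 44.7 FPKM at E16.5. Foxj1, whose promoter drives the Cre, fell from 208, 198 and 154 FPKM in embryonic ChP to 37.9, 45.8 and 62.4 FPKM in adult ChP (limma adjusted p = 0.0127).

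**Figure D1:**
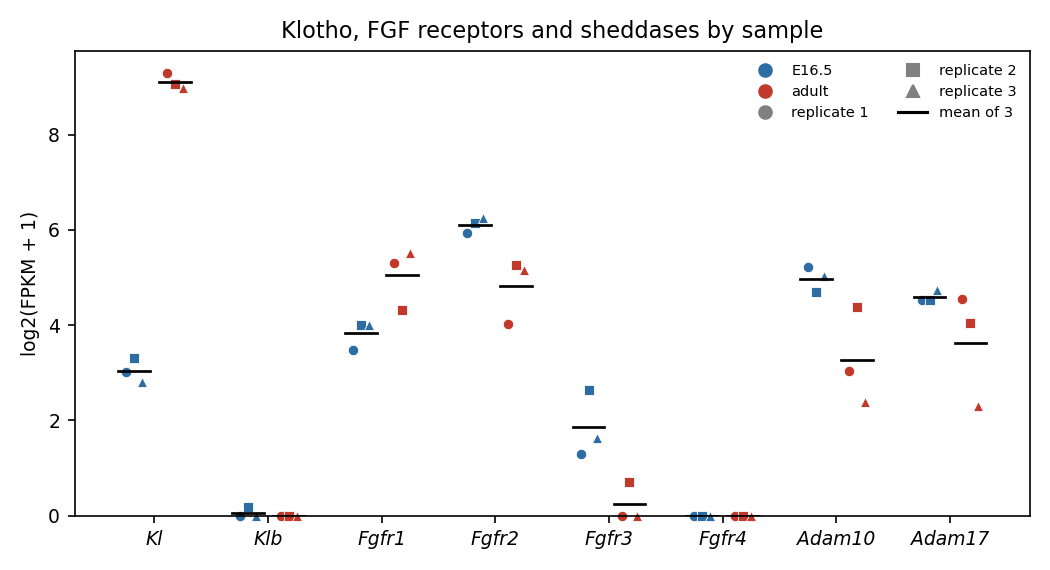
Level of each of the 8 genes in every sample, as log2(FPKM + 1). Blue symbols are E16.5, red symbols adult, shapes mark the replicates and black bars the mean of 3. Kl in adult stands above every other value, at 503 to 628 FPKM against 6.03 to 8.94 FPKM at E16.5, and Klb and Fgfr4 lie at or near 0.

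Klotho was the only member that limma called between the ages, with the higher level in adult. Kl (chromosome 5, 150952607 to 150993817 on mm10, as RefSeq places the gene) measured 628, 531 and 503 FPKM in adult ChP, in the order of replicates 1, 2 and 3 that is used throughout. In embryonic ChP it measured 7.10, 8.94 and 6.03 FPKM. Each age was tight and the ages were far apart. The adult mean of 554 ± 66.0 FPKM was 75.3 times the embryonic mean of 7.36 ± 1.48 FPKM (SD, n = 3 each). On log2(FPKM + 1) the change, adult minus E16.5 as everywhere here, was 6.06 (standard error, SE, of 0.29, 95% interval 5.38 to 6.74, limma adjusted p = 0.000166). At a limma adjusted p under 0.05, 2.12% of the genes tested were called with the higher level in adult and 8.83% with the higher level in embryonic ChP. That balance moved with the scaling, from 246 genes up and 1024 down to 119 and 3200 with libraries rescaled to equal sums and to 466 and 449 after quantile normalization. With Mir6236 left out of the equal sums, the counts were 195 and 1337. Only 5 of the 11601 genes had a larger upward change. The two-sided exact permutation p of Kl was 0.1, the floor that 3 samples against 3 allow. The 12 epithelial markers summed to 39419 to 54317 FPKM in adult against 4417 to 4821 FPKM in embryonic ChP, with 5 of the 12 called up and 3 down by limma. That difference rests on Ttr and Enpp2. Without these, a choice made after seeing the data, the other 10 markers summed to 3360 to 4283 FPKM in adult against 4144 to 4550 FPKM in embryonic ChP, which overlap. In these bulk samples, more Kl mRNA per cell and more cells that make it cannot be told apart.

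The rank of Kl within its own library moved the same way and does not depend on scaling. Kl was the gene with rank 26, 62 and 53 in adult replicates 1, 2 and 3. At E16.5 it had rank 7486, 6773 and 7742. The median log2 change of all genes tested was -0.86, so Kl lay 6.92 above it. Under scaling by median ratios, rescaling to the same sum with and without the small RNA gene Mir6236, and quantile normalization, Kl lay 6.75 to 7.21 above the median.

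Enpp2 and Tgfb2 were among the 3 tested genes whose profiles were nearest to that of Kl. Nearness was the root mean square difference of centred log2(FPKM + 1) over the 6 samples, which was 0.22 for Enpp2 and 0.55 for Tgfb2. Enpp2, which encodes the secreted lysophospholipase autotaxin, stood at 16676 ± 1937 FPKM in adult against 273 ± 30.5 FPKM in embryonic ChP (SD, n = 3 each). Tgfb2, a secreted growth factor of the TGF-beta family, stood at 160 ± 21.1 against 3.98 ± 1.71 FPKM.

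Klb (chromosome 5, 65348411 to 65386957) was listed at 0 in 5 samples and at 0.137 FPKM in E16.5 replicate 2. Over its longest annotated transcript, 1 read is worth about 0.0191 FPKM in that library and 0.0971 FPKM in adult replicate 3, the shallowest. It did not reach the mean FPKM needed for the test. The same level would amount to only a few reads in an adult library.

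**Figure D2:**
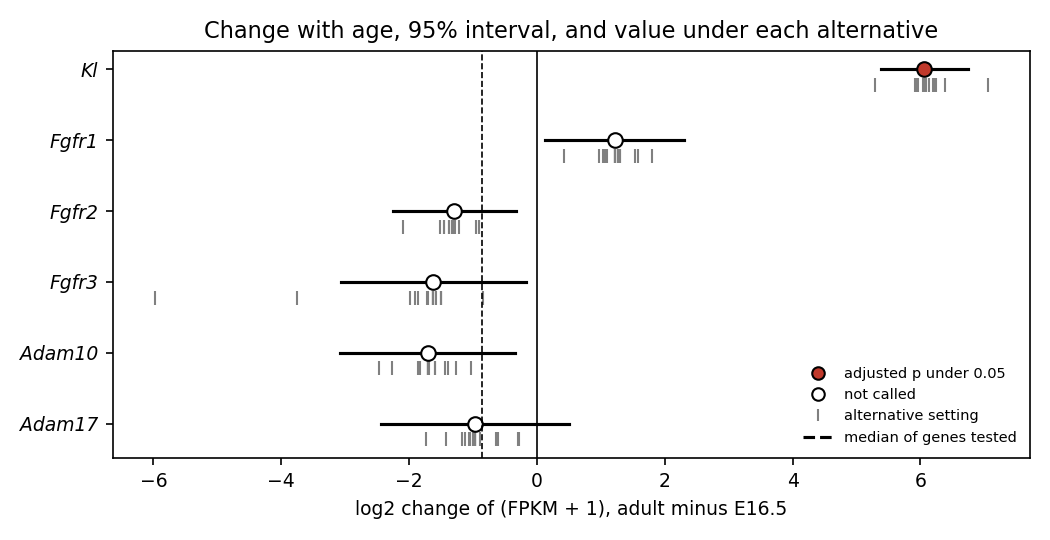
Change of each tested member with age on log2(FPKM + 1), adult minus E16.5. Circles are the limma estimates with 95% intervals, red where the adjusted p is under 0.05, grey ticks give the value under each alternative setting, and the dashed line is the median of all genes tested at -0.86. Kl sits at 6.06, Fgfr1 at 1.22 and the other 4 genes between -1.71 and -0.96.

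Among the receptors, Fgfr1 and Fgfr2 were the ones measured at more than a few FPKM. Fgfr1 (chromosome 8, 25518759 to 25575718), the usual partner of Klotho for FGF23, measured 38.4, 19.0 and 45.1 FPKM in adult ChP against 10.2, 15.0 and 15.1 FPKM in embryonic ChP. The ages did not overlap, adult being higher, and adult replicate 2 came nearest to the embryonic range. The adult mean was 2.54 times the embryonic one, with a log2 change of 1.22 (standard error 0.47, 95% interval 0.13 to 2.30) that did not pass the test (limma adjusted p = 0.128). Of all genes tested, 7.39% had all adult values above all embryonic ones.

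Fgfr2 (chromosome 7, 130162451 to 130266808), whose epithelial splice form binds FGF7 and FGF10, measured 15.4, 37.4 and 34.6 FPKM in adult ChP. In embryonic ChP it measured 59.8, 69.6 and 75.2 FPKM, so that all adult values lay below, and the embryonic mean was 2.34 times the adult one. The log2 change was -1.29 (standard error 0.41, 95% interval -2.25 to -0.33, limma adjusted p = 0.0838). Of all genes tested, 31.0% had all adult values below all embryonic ones. Fgfr2 was called higher in embryonic ChP by limma when libraries were rescaled to equal sums (adjusted p = 0.0218) and with array weights (adjusted p = 0.0490). In those fits limma called 3200 of 11902 and 1303 of 11601 genes higher at E16.5. Relative to the median log2 change of all genes tested, Fgfr2 lay at -0.43 in the main fit. With Mir6236 left out of the equal sums, Fgfr2 was not called (limma adjusted p = 0.0670). The files do not separate splice forms.

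Fgfr3 (chromosome 5, 33721724 to 33737068), known in the brain for its place in glial cells and progenitors, was low at both ages. Adult replicates 1 and 3 gave 0 and adult replicate 2 gave 0.630 FPKM. The E16.5 samples had 1.44, 5.21 and 2.11 FPKM, all above the adult values, as in 31.0% of all genes tested. Its log2 change, -1.62 with a standard error of 0.62, did not pass the test (limma adjusted p = 0.127) and moved to -5.98 with a pseudocount of 0.01. Fgfr4 (chromosome 13, 55152818 to 55168759), a receptor of liver known for its work with beta-Klotho, was listed at 0 in all 6 samples.

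The makeup of the receptor mRNA was compared within each sample, where scaling cancels. Fgfr1 made up 71.4%, 33.3% and 56.6% of the summed FPKM of the 4 receptors in the adult replicates, and 14.3%, 16.7% and 16.4% at E16.5. Fgfr2 made up 28.6%, 65.6% and 43.4% in adult and 83.7%, 77.5% and 81.4% at E16.5. The ages did not overlap for either share, and the adult samples spread widely, with Fgfr2 still the larger part in adult replicate 2. The share of Fgfr1 was 38.0 percentage points higher in adult, and 29.1 to 48.2 with each sample left out in turn. Its exact permutation p was 0.1, the smallest this design allows, and 0.117 after adjustment over the 7 shares and ratios tested. The log2 ratio of Fgfr2 to Fgfr1 was -0.23 ± 1.11 in adult and 2.27 ± 0.15 at E16.5 (SD, n = 3 each), with the same exact p. Mesenchymal and ciliary marker sums were also lower in adult, as given above, and their part in the receptor values was not tested. The summed FPKM of the 4 receptors overlapped between the ages, with 53.7, 57.0 and 79.6 FPKM in adult and 71.5, 89.8 and 92.4 FPKM at E16.5.

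**Figure D3:**
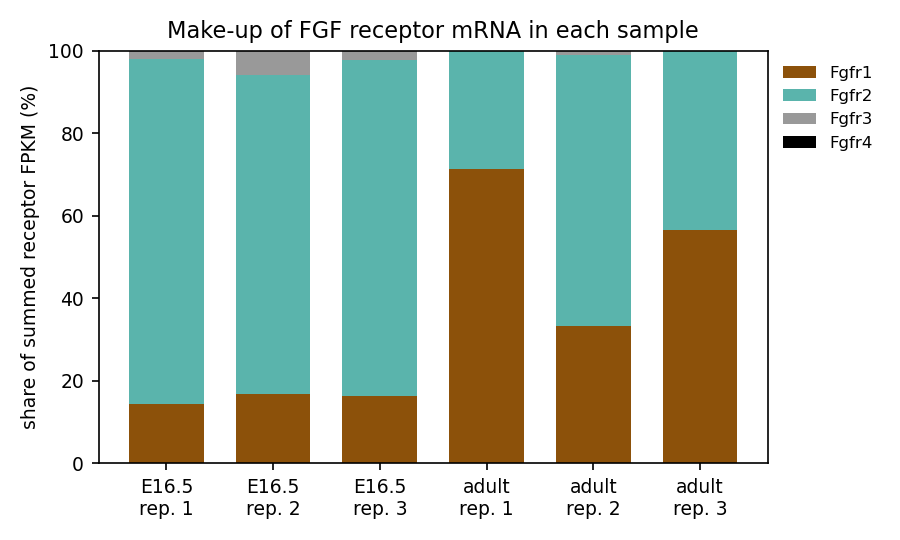
Share of each FGF receptor in the summed FPKM of Fgfr1 to Fgfr4, in percent, with 1 bar per sample. Fgfr1 takes 14.3% to 16.7% at E16.5 and 33.3% to 71.4% in adult, Fgfr3 takes at most 5.80%, and Fgfr4 is listed at 0.

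Set against the 4 FGF receptors summed, Klotho turned from the minor to the major transcript. The FPKM of Kl was 11.7, 9.32 and 6.31 times that of the 4 receptors summed in the adult replicates. At E16.5 it was 0.0993, 0.0996 and 0.0652 times. The log2 ratio was 6.48 higher in adult (exact permutation p = 0.1, adjusted p = 0.117).

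The order of the members changed accordingly. In adult the mean FPKM ran from Kl through Fgfr1, Fgfr2, Adam17 and Adam10 to Fgfr3. The ranges of Fgfr1 and Fgfr2, of Fgfr2 and Adam17, and of Adam17 and Adam10 overlapped, so those neighbours did not differ beyond their spread. At E16.5 Fgfr2 led, followed by Adam10, Adam17, Fgfr1, Kl and Fgfr3, and only the ranges of Adam10 and Adam17 overlapped among these neighbours. Within each E16.5 library Adam10 was the higher, at 1.64, 1.13 and 1.23 times Adam17.

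Of the sheddases, Adam10 (chromosome 9, 70678944 to 70780229) measured 7.21, 19.8 and 4.24 FPKM in adult ChP against 36.2, 24.9 and 31.5 FPKM in embryonic ChP. All adult values lay below the embryonic ones, as in 31.0% of all genes tested, with adult replicate 2 the closest. The embryonic mean was 2.96 times the adult one. The log2 change was -1.71 (standard error 0.59, 95% interval -3.08 to -0.34, limma adjusted p = 0.0996). It passed the limma test with equal sums (adjusted p = 0.0286) and without adult replicate 2 (-2.27, adjusted p = 0.0289). In those fits limma called 3200 of 11902 and 1704 of 11577 genes higher at E16.5. Relative to the median log2 change of all genes tested, Adam10 lay at -0.85 in the main fit. With Mir6236 left out of the equal sums, Adam10 was not called (limma adjusted p = 0.0716). Adam17 (chromosome 12, 21323509 to 21373632) measured 22.4, 15.5 and 3.94 FPKM in adult ChP against 22.2, 22.02 and 25.6 FPKM in embryonic ChP. Adult replicate 1 lay within the embryonic range, replicate 2 below it and replicate 3 far below, and the log2 change was -0.96 (SE 0.63, limma adjusted p = 0.328). Without that shallowest library it was -0.30. The log2 ratio of Adam10 to Adam17 overlapped between the ages as well (-0.36 ± 1.002 in adult and 0.38 ± 0.27 at E16.5, SD, n = 3 each, exact permutation p = 0.3).

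Of the 6 members tested, limma called 1 with the higher level in adult and 0 with the higher level in embryonic ChP, against 2.12% and 8.83% of all genes tested. At an unadjusted p under 0.05 the counts were 2 and 3, against 5.34% and 25.9% of all genes tested.

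The nearest profiles to the other tested members were of genes with mixed roles. For Fgfr1 they were Cpeb2, Csnk1g1 and Nfatc2 (root mean square difference 0.16 to 0.19), and for Fgfr2 they were Specc1, Topors and Fhad1 (0.13 to 0.14). Fgfr3 lay nearest to Zc3h12b, Rnpepl1 and Cbx2 (0.13 to 0.21) and Adam10 to Chd1l, Scfd2 and Hus1 (0.14 to 0.18). Adam17 lay nearest to Zfp12, Ints3 and Epb4.1 (0.08 to 0.13). These profiles share the 6 libraries and their depth.

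The genes around these members were counted in lists. These covered FGF ligands, receptor partners, signal relay, targets, sheddases, the mineral axis of Klotho and subunits of the sodium pump. All 108 listed genes were in the table, 63 were tested, 7 were called up in adult and 3 down, a balance that turned to 3 and 8 with equal sums and to 6 and 7 without adult replicate 2. With Mir6236 left out of the equal sums, the list counts were 7 and 4. The median log2 change over the 63 was -0.18, beside -0.86 over all genes tested. These calls rest on every E16.5 library. With E16.5 replicate 1, 2 or 3 left out, limma called 0 list genes, and the lowest adjusted p was 0.0503 to 0.0559. In these fits 24.6% to 27.4% of the list genes tested had an unadjusted p under 0.05, near the 22.1% to 23.0% of all genes tested.

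**Figure D4:**
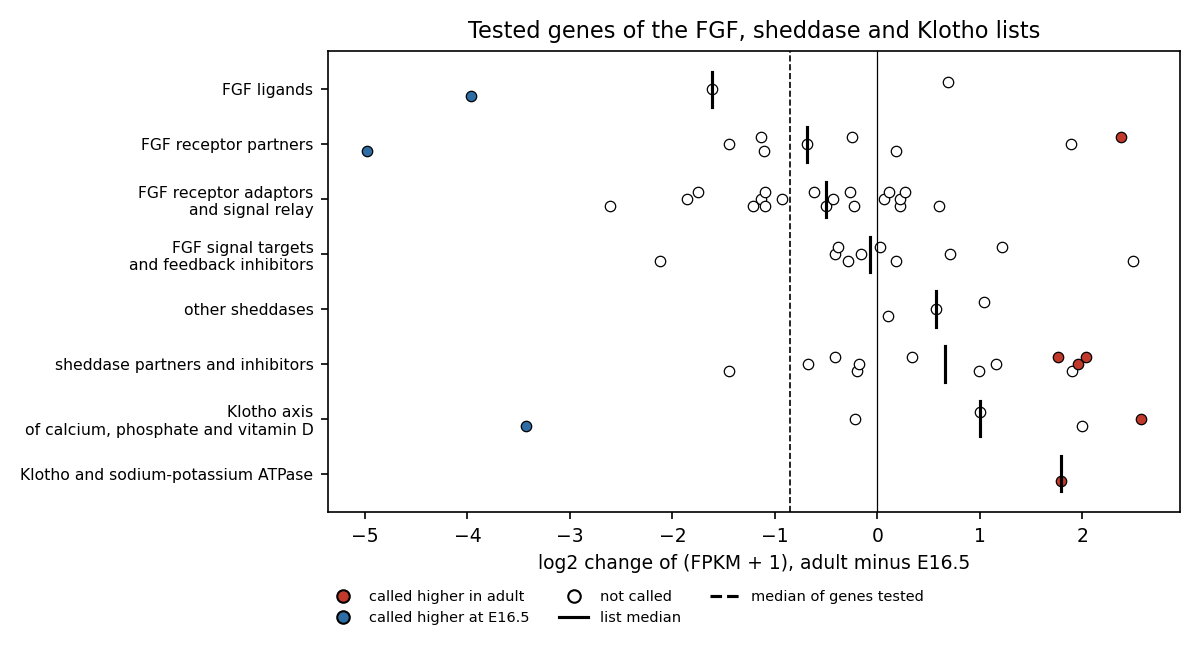
Log2 change of 62 tested list genes, adult minus E16.5, by list. Filled circles were called by limma (red higher in adult, blue higher at E16.5), short bars are list medians and the dashed line is the median of all genes tested. The 6 called genes shown that are higher in adult lie between 1.76 and 2.57, and the 3 that are lower are near or at 0 FPKM in adult, where the plotted value depends on the pseudocount.

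Ligands were scarce. Of 22 FGF genes, 12 were listed at 0 in all 6 samples, among them the endocrine Fgf15, Fgf21 and Fgf23, and 3 were tested. Fgf11, an intracellular FGF that does not act through the receptors, fell. It measured 10.6, 16.2 and 20.04 FPKM in embryonic ChP against 0.109, 0 and 0 FPKM in adult ChP, and its log2 change was -3.96 (SE 0.61, limma adjusted p = 0.0123). Fgf18, a secreted ligand, spread from 0.244 to 21.3 FPKM in adult and from 0.615 to 5.97 FPKM at E16.5, and the ages overlapped.

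Among 9 tested receptor partners 1 was called in each direction. Fgfbp1, a secreted carrier that frees FGFs from the matrix, had 25.1, 34.9 and 32.6 FPKM at E16.5 and was listed at 0 in every adult sample (limma adjusted p = 0.00506). Nptn, the adhesion protein neuroplastin that binds FGFR1, rose from 16.5, 15.8 and 9.90 FPKM at E16.5 to 89.8, 110 and 43.6 FPKM in adult (log2 change 2.38, standard error 0.46, limma adjusted p = 0.0234). Without adult replicate 1 the adjusted p of Nptn was 0.0587. Fgfrl1, a receptor-like protein without the kinase, stood at 31.1 ± 12.4 FPKM in adult against 26.4 ± 5.29 FPKM in embryonic ChP (SD, n = 3 each), and the ages overlapped.

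Of 19 tested genes of signal relay and 10 of targets and feedback, limma called 0 in either direction, while 2 and 2 had an unadjusted p under 0.05, which 31.3% of all genes tested had. Ptpn11, the phosphatase SHP2 and the relay gene with the highest mean over all 6 samples, stood at 113 ± 32.7 FPKM in adult against 71.8 ± 5.19 FPKM in embryonic ChP, and the ages overlapped. Spry2, an inhibitor that FGF signals induce and the gene of its list with the highest mean over all 6 samples, though not over the embryonic ones, measured 41.99, 31.9 and 8.32 FPKM in adult ChP against 3.93, 5.30 and 1.37 FPKM in embryonic ChP. Its ages did not overlap, but with a log2 change of 2.50 (standard error 0.76) it did not pass the test (limma adjusted p = 0.0738). The median log2 changes were -0.50 for relay and -0.07 for targets and feedback.

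Partners and inhibitors of the sheddases held 3 called genes of 12 tested, all higher in adult, and 5 of the 12 had all adult values above all embryonic ones. Of all genes tested, 2.12% were called in that direction and 7.39% had no overlap in it. Timp3, an inhibitor of ADAM17 and ADAM10 that binds to the matrix, measured 351, 281 and 255 FPKM in adult ChP against 77.1, 85.4 and 63.3 FPKM in embryonic ChP. The ages were well apart, with a log2 change of 1.96 (SE 0.26, limma adjusted p = 0.00795). Furin, the convertase that removes the inhibitory prodomain of both proteases, measured 39.9, 76.2 and 110 FPKM in adult ChP against 19.4, 21.2 and 10.2 FPKM in embryonic ChP. Its log2 change was 2.04 (limma adjusted p = 0.0414), and the call was lost in 11 of 18 alternatives, among them leaving out adult replicate 2 (adjusted p = 0.0692) or 3 (adjusted p = 0.0506). Tspan33, a tetraspanin that carries ADAM10 to the surface, measured 52.7, 90.4 and 58.6 FPKM in adult ChP against 19.5, 14.2 and 23.1 FPKM in embryonic ChP (log2 change 1.76, limma adjusted p = 0.0315). The call on Tspan33 was lost in 7 of 18 alternatives. Of the other sheddases limma called 0 of 3 tested, and 0 had an unadjusted p under 0.05. Adam9 stood at 32.3 ± 7.13 FPKM in adult against 30.2 ± 7.31 FPKM in embryonic ChP, and Bace1, the beta-secretase, 25.6 ± 5.21 and 17.0 ± 4.41 FPKM (SD, n = 3 each).

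In the mineral axis, Slc20a2, a sodium-dependent phosphate importer, rose from 5.10, 8.57 and 8.14 FPKM at E16.5 to 51.0, 56.7 and 36.4 FPKM in adult. Its log2 change was 2.57 (SE 0.43, limma adjusted p = 0.0149). Pth1r, the receptor of parathyroid hormone, had 11.6, 9.38 and 8.56 FPKM at E16.5 and was listed at 0 in every adult sample (limma adjusted p = 0.0159). Of the 14 genes of this list 5 were tested and 7 were listed at 0 in all 6 samples.

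**Figure D5:**
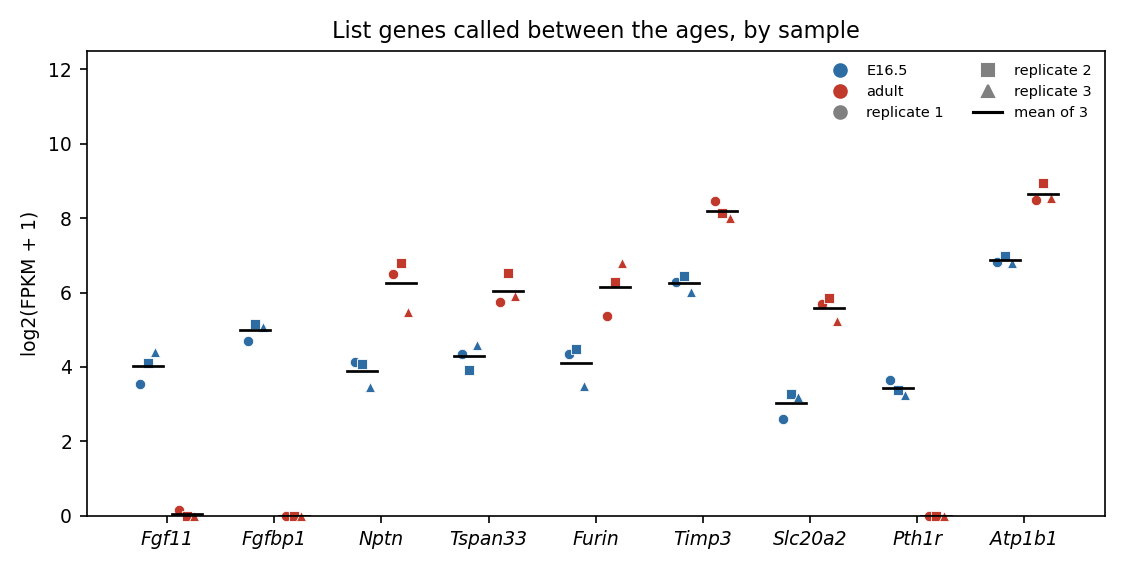
Level in every sample of 9 list genes called between the ages, as log2(FPKM + 1), with symbols as in the plot of the 8 members. Fgfbp1 and Pth1r are listed at 0 in all adult samples, Fgf11 reaches at most 0.109 FPKM there, and the other 6 genes are higher in every adult sample than in any E16.5 sample.

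Klotho is known to help hold the sodium pump at the membrane, so its levels were set beside Atp1b1, the beta subunit. Atp1b1 measured 361, 490 and 369 FPKM in adult ChP against 112, 126 and 110 FPKM in embryonic ChP (log2 change 1.79, limma adjusted p = 0.00801). All adult values lay above the embryonic ones. With libraries rescaled to equal sums it was not called by limma (adjusted p = 0.0654). With Mir6236 left out of the equal sums, Atp1b1 was called (limma adjusted p = 0.0113).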

How the data were processed

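By the methods, the authors aligned single-end reads to mm10 with STAR 2.4.0, and the deposited gene FPKM came from Cuffquant, a part of Cufflinks. Which annotation Cuffquant used is not given in the sources used here. Names that a spreadsheet had turned into dates (27) were kept as separate rows. Of the 24354 names, 11601 had a mean FPKM above 1 across the 6 samples and entered the limma test (limma 3.58.1, R 4.3.3) on log2(FPKM + 1), with a trend on the mean level, no covariate, and Benjamini-Hochberg adjustment across all of them at 0.05. A pseudocount of 1 understates the change of low genes. Shares and ratios within a sample were compared by two-sided exact permutation tests. Coordinates and promoters are RefSeq's on GRCm38.p6.

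The FPKM carry no depth of their own, so it was estimated from 2523 genes with 1 annotated transcript, of which each library gave 35 to 63 low values. Of these, 65.1% to 82.1% lay within 0.1 of a whole read. This covers counting error only, since reads carry no molecular identifiers.

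The members and gene lists were chosen with earlier results of these data known. The genes named are the 8 members, in each list the called genes and the gene with the highest mean over the 6 samples, the endocrine FGFs, Atp1b1, the 3 nearest profiles of each tested member, and markers. Of the genes that this rule takes, 2 are not reported here, though the counts over the lists include the one among them that was called. Fgf18, Fgfrl1 and Bace1 were added after their values were known. The alternatives were pseudocounts of 0.1 and 0.01, other filters and scalings, no trend, array weights, a threshold of 0.01, a replicate block and leaving out each sample. The limma fit was tested on simulated data.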

Additional observations from a re-analysis of the deposited data

How the results depend on the processing

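The rise of Kl kept its direction and its call in all 18 alternatives (log2 change 5.28 to 7.06, adjusted p 3.14e-05 to 0.00498), and Fgfr1, Fgfr3 and Adam17 kept their direction and stayed uncalled in all that tested them. Fgfr2 was called after rescaling to the same sum (-2.10) and with array weights (-1.37), and Adam10 after rescaling to the same sum (-2.47) and in 1 fit with a sample left out (range -2.27 to -1.27). With Mir6236 left out of that sum, neither Fgfr2 nor Adam10 was called (limma adjusted p = 0.0670 and 0.0716). The 7 shares and ratios kept their direction in all 8 alternatives. No member, called list gene, share or ratio tested changed sign, while the balance of calls up and down turned. Over all genes, 246 were called up in adult and 1024 down, and these counts were 347 and 656 with median ratios, 119 and 3200 after rescaling to the same sum, 466 and 449 after quantile normalization, 158 and 949 without a trend, and 56 and 132 at a threshold of 0.01. With a sample left out they ranged from 27 to 357 and from 16 to 1704, and each of the 3 embryonic replicates left out brought them to at most 47 and 65. Of the list genes, 7 were called up and 3 down, against 3 and 8 after rescaling to the same sum, 6 and 7 without adult replicate 2, 4 and 3 without a trend, and 2 and 1 at a threshold of 0.01, and from 0 to 9 and from 0 to 7 with a sample left out. After rescaling to the same sum without Mir6236, the counts were 195 and 1337 over all genes and 7 and 4 of the list genes. The cause of the shifts between settings was not tested. The part of depth in the adult zeros of Fgfr3, Klb and Fgfr4 was not tested. Fgfr4 was also listed at 0 in the 3 deeper embryonic libraries and Klb in 2 of them.

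In the labels, same-numbered samples of the ages share only a replicate number. Deviations from the age means correlated at 0.000895, 0.0439 and 0.0150 in same-numbered pairs, and at -0.0292 to 0.0135 in the other pairs. Whether same-numbered samples shared a batch was not tested. With the replicate block, 112 genes were called up in adult and 452 down, the list genes called were 5 and 2, and Kl stayed called (adjusted p = 0.00153). Replicates 2 and 3 of each age correlated best with their own number and replicates 1 did not.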

Other observations

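The protein-coding genes on either side of Kl on chromosome 5, chosen after their values were seen, were not called between the ages. Pds5b, a cohesin regulator upstream of Kl, had 22.7, 16.4 and 6.57 FPKM in adult and 32.1, 25.0 and 33.3 FPKM at E16.5 (limma adjusted p = 0.197). Stard13, a RhoGAP protein downstream of Kl, had 47.7, 48.5 and 36.3 FPKM in adult and 21.0, 32.8 and 36.3 FPKM at E16.5 (limma adjusted p = 0.320). The ages overlapped for Stard13 and did not for Pds5b, whose adult samples were the lower ones, as in 31.0% of all genes tested.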
